A study of Mus musculus with 2 samples.

Results

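Cyclic AMP and cyclic GMP are made by adenylyl and guanylyl cyclases and broken down by phosphodiesterases. The genes of these enzymes were described in nuclei of mouse hindbrain neurons that project to the spinal cord. Members were taken by name: Adcy followed by a number, any symbol starting with Gucy, and Pde followed by a number and 1 letter. Of 23912 genes in the count tables, 43 matched, and 38 had at least 20 unique molecular identifiers (UMIs, counted RNA molecules) over both libraries. These are 9 adenylyl cyclases, 5 guanylyl cyclase genes and 24 phosphodiesterase genes. The 5 genes below 20 UMIs were Gucy1b2 with 17, Gucy2c with 13, Gucy2g with 11, Gucy2d with 4 and Adcy4 with 1 UMI.

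All mice were of the TRAP2 strain, aged 8 to 12 weeks. TRAP2 carries an inducible Cre recombinase at the Fos locus, so that neurons active in a chosen window can be marked. Both groups received AAV-retro-H2B-GFP, a virus taken up by axon ends that labels nuclei green, in the lumbar spinal cord. One group was exposed to a hot water bath and the other to the condition labelled SNI with brush. Hindbrains of each treatment, taken from about 7.3 to 5.2 mm posterior to bregma, were pooled, and nuclei were sorted and sequenced with the 10x 3' v3 kit. Each treatment is therefore 1 library of pooled animals, and the sources used here do not give their number. There was no library of untreated mice among the samples used here, and differences between libraries cannot be told apart from differences between treatments.

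Cyclic AMP acts through protein kinase A, the Epac exchange factors and cyclic nucleotide-gated channels, and cyclic GMP acts mainly through protein kinase G. Phosphodiesterase families differ in which of these nucleotides they hydrolyse and in how they are controlled, by calcium and calmodulin or by cGMP itself. In the hindbrain, adenylyl cyclases relay signals from opioid, serotonin and noradrenaline receptors, and soluble guanylyl cyclase answers to nitric oxide.

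The hot water bath library held 425 nuclei with 16344606 UMIs (median 36962 per nucleus), and the SNI with brush library held 288 nuclei with 11298755 UMIs (median 32852.5). The libraries shared 0 barcodes. Nuclei with at least 10 Tph2 UMIs, the gene of the enzyme that starts serotonin synthesis in neurons, formed the Tph2 class. Of the others with at least 3 transmitter UMIs, those with at least 75% from Slc17a6 (a vesicular glutamate transporter) were called glutamatergic. Those with at least 75% from Gad1, Gad2 and Slc6a5 (GABA synthesis and glycine transport) were called inhibitory. In the hot water bath library this gave 252 glutamatergic, 61 inhibitory and 26 Tph2 nuclei, with 83 unnamed. The SNI with brush library gave 111 glutamatergic, 103 inhibitory and 3 Tph2 nuclei, with 52 unnamed. A further 17 nuclei of the SNI with brush library had more UMIs of liver genes than of neuron genes and were left out, against 0 in the hot water bath library.

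Summed over nuclei, the Tph2 class carried other serotonergic markers. In the hot water bath library, Slc6a4 (serotonin transporter) stood at 312 counts per 1000000 UMIs (CPM), Slc18a2 at 768, Ddc at 1102 and Lmx1b at 159. In glutamatergic nuclei of the same library these genes stood at 0.296, 16.8, 12.8 and 9.66 CPM. The SNI with brush Tph2 nuclei had 1118 CPM of Slc6a4 and 1825 CPM of Ddc. Per nucleus, Slc6a4 ranged from 0 to 42 UMIs (median 7.5) in the hot water bath Tph2 class, with 0 in several nuclei. In the 3 SNI with brush Tph2 nuclei it ranged from 24 to 82 UMIs (median 63). Slc18a2 and Ddc were seen in every Tph2 nucleus of both libraries. Fev, a serotonergic transcription factor, was low in the Tph2 nuclei of both libraries, at 5.48 and 6.61 CPM. The hot water bath Tph2 nuclei also carried Gad2 at 317 CPM, near the 328 CPM of inhibitory nuclei, and Slc17a6 at 2.74 CPM. Inhibitory nuclei of that library held some of these RNAs, with Slc18a2 at 58.7, Lmx1b at 45.0 and Ddc at 42.2 CPM. Other serotonergic markers were low or absent in them: Gch1 at 4.59, Fev at 0.917 and Slc6a4 at 0 CPM.

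Among the members, the Tph2 nuclei differed most from the other classes. Pde2a, Gucy2f and Pde8a were higher and Adcy8 and Pde1b were lower in Tph2 nuclei than in both glutamatergic and inhibitory nuclei, and Pde4b was lower than in glutamatergic nuclei. Pde2a hydrolyses cAMP and cGMP and is switched on by cGMP, Gucy2f is a membrane guanylyl cyclase known from the retina, and Pde8a is a cAMP-specific phosphodiesterase. Adcy8 is an adenylyl cyclase stimulated by calcium and calmodulin, Pde1b a phosphodiesterase stimulated by the same pair, and Pde4b a cAMP-specific phosphodiesterase. The 250 bases before the annotated starts of the 3 genes that were higher in Tph2 nuclei are shown. They come from RefSeq on GRCm38.p6, run 5′ to 3′ on the gene's strand, and carry in capitals the core TGACG of the cAMP response element where it occurs. For Pde2a, which has 5 listed starts, the most upstream is given. The windows are chr7:101421441-101421690 (plus strand) for Pde2a, chrX:142196937-142197186 (minus strand) for Gucy2f and chr7:81213015-81213264 (plus strand) for Pde8a.
Pde2a: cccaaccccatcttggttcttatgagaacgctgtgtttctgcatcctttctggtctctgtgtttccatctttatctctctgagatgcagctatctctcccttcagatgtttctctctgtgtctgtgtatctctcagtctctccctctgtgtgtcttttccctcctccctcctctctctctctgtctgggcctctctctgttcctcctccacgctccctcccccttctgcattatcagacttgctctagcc
Gucy2f: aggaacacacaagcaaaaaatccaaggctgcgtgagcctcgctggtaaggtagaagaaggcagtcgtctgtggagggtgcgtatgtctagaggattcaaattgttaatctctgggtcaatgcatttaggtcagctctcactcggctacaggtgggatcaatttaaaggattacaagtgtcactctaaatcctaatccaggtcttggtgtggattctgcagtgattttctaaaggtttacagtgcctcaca
Pde8a: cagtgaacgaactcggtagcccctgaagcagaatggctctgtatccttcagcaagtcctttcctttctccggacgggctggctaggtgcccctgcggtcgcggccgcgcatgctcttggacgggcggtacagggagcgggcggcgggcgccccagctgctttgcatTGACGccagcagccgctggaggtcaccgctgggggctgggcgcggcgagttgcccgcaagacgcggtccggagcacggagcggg
The core stood 84 bases before the start in Pde8a and did not occur on either strand in the windows shown for Pde2a and Gucy2f. In all, 54 promoters of 29 members were listed. The core TGACG, searched on both strands, was found in 10 of them (18.5%), against 17.8% of all 32851 promoters. The full palindrome TGACGTCA, which contains that core, was found in 0 member promoters and in 1.55% of all promoters. The ETS site CCGGAAGT was found in 1 member promoter, that of Pde6b, and in 2.88% of all promoters. A match is a description of letters and not of a bound site.

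UMIs were summed per library and class and the sums of a pair of classes were tested with the library as a term by edgeR's quasi-likelihood test with Benjamini-Hochberg adjustment over all genes. Each such fit had 4 sums and 1 residual degree of freedom, and its spread between libraries includes the difference in treatment. For the Tph2 comparisons, p-values rest on a spread shared over genes and not on each gene's own. Against glutamatergic nuclei, 3 of the 38 members were higher and 3 lower in Tph2 nuclei (adjusted p below 0.05), where 6.07% of 17905 genes were called, 2.2% higher and 3.87% lower. Against inhibitory nuclei, 3 members were higher and 2 lower, where 4.71% of 17928 genes were called, 1.58% higher and 3.13% lower. By size alone, at least 2-fold in both libraries with both intervals off 1, 3 members were higher and 2 lower (Adcy8 and Pde4b) than in glutamatergic nuclei, a pattern of 3.38% of all genes, 1.39% higher and 1.99% lower. Against inhibitory nuclei 3 were higher and 2 lower (Adcy8 and Pde1b), a pattern of 3.07% of all genes, 1.13% higher and 1.94% lower. In the SNI with brush library Pde1b reached 2-fold only through the 0.5 UMI added to its 0 UMIs in Tph2 nuclei. Taking 3 UMIs as the floor, it was 1.61-fold lower there, and the counting interval of its log2 ratio ends at −0.368. The members' median log2 difference was −0.47 against glutamatergic and −0.14 against inhibitory nuclei, and over all genes it was −0.16 in both. In these bulk sums, fewer nuclei with the RNA and less RNA per nucleus cannot be told apart, so shares of nuclei are given beside them. Intervals are 95% and exact, and cover counting error only.

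Among the cyclases, Adcy8 stood at 237 CPM in glutamatergic, 148 in inhibitory and 16.4 in Tph2 nuclei of the hot water bath library. The SNI with brush values were 212, 237 and 19.8 CPM in the same order. The Tph2 class was the lowest in both libraries. The log2 difference was −3.72 ± 0.40 (SE) against glutamatergic (edgeR adjusted p = 5.1e-18) and −3.24 ± 0.39 against inhibitory nuclei (adjusted p = 3.77e-14). A UMI of Adcy8 was seen in 91.3% of glutamatergic, 65.6% of inhibitory and 26.9% of Tph2 nuclei in the hot water bath library. At 9000 UMIs per nucleus, a depth to which every nucleus was thinned, these shares were 73.8%, 44.3% and 15.4%. Of 18 Adcy8 UMIs in the 26 Tph2 nuclei, 8 came from 1 nucleus. The SNI with brush Tph2 value rests on 3 UMIs from 1 of 3 nuclei, a log2 ratio to glutamatergic nuclei of −3.20 (interval −5.70 to −1.87).

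Gucy2f stood at 4.44 CPM in glutamatergic, 0.917 in inhibitory and 64.8 in Tph2 nuclei of the hot water bath library. The SNI with brush values were 2.27 CPM in glutamatergic and 26.5 in Tph2 nuclei, with 0 UMIs in inhibitory nuclei, which allows up to 0.813 CPM. The Tph2 class was the highest in both libraries. The log2 difference from glutamatergic nuclei was 3.79 ± 0.52 (SE, edgeR adjusted p = 5.46e-11). Against inhibitory nuclei the edgeR adjusted p was 4.7e-15. The SNI with brush value alone was 32.5-fold higher when 3 UMIs over the inhibitory sum were taken as the floor. The counting interval of that ratio starts at a log2 of 4.01. That SNI with brush value rests on 4 UMIs, and the hot water bath inhibitory value on 2 UMIs of 1 nucleus. Gucy2f was seen in 19 of 26 Tph2 nuclei (73.1%), in 19 of 252 glutamatergic nuclei (7.54%) and in 1 of 61 inhibitory nuclei (1.64%) of the hot water bath library. Of its 130 UMIs there, 54.6% lay in Tph2 nuclei, which held 6.78% of all UMIs. The 2 shares were 18.2% and 1.35% in the SNI with brush library. The gene lies on chromosome X at 142081160 to 142196931, minus strand.

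The other cyclases did not pass the test in any class comparison. Adcy1 and Adcy3, the other calcium-stimulated cyclases, stood at 23.7 and 30.1 CPM in the hot water bath Tph2 nuclei against 43.2 and 39.2 in glutamatergic nuclei. In the SNI with brush library Adcy1 stood at 46.3 CPM in Tph2 and 57.9 in glutamatergic nuclei, and Adcy3 at 72.8 and 37.5 CPM, so that the order for Adcy3 differed between libraries. With Adcy8 included, the calcium-stimulated group summed to 319 CPM in glutamatergic, 244 in inhibitory and 70.3 in Tph2 nuclei of the hot water bath library, and to 308, 340 and 139 CPM in the other. Adcy5 and Adcy6, inhibited by calcium, summed to 72.1, 75.7 and 81.2 CPM in the hot water bath library and to 62.1, 67.5 and 92.6 CPM in the SNI with brush library. Adcy10, the soluble bicarbonate-sensing cyclase, ranged from 6.61 to 13.6 CPM over the 6 sums, and Adcy7 from 6.61 to 28.3 CPM. Adcy9 ranged from 79.4 to 158 CPM.

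Gucy1a1, Gucy1a2 and Gucy1b1 encode subunits of the nitric oxide receptor, soluble guanylyl cyclase. Gucy1a2 stood at 382, 475 and 465 CPM in glutamatergic, inhibitory and Tph2 nuclei of the hot water bath library and at 280, 246 and 417 CPM in the SNI with brush library. It was seen in 100% of nuclei of all 3 classes in the hot water bath library. Gucy1b1, the beta subunit, ranged from 32.9 to 56.9 CPM and Gucy1a1 from 15.5 to 39.7 CPM over the 6 sums. Gucy2e, a retinal relative of Gucy2f, was at most 4.56 CPM.

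**Figure D1:**
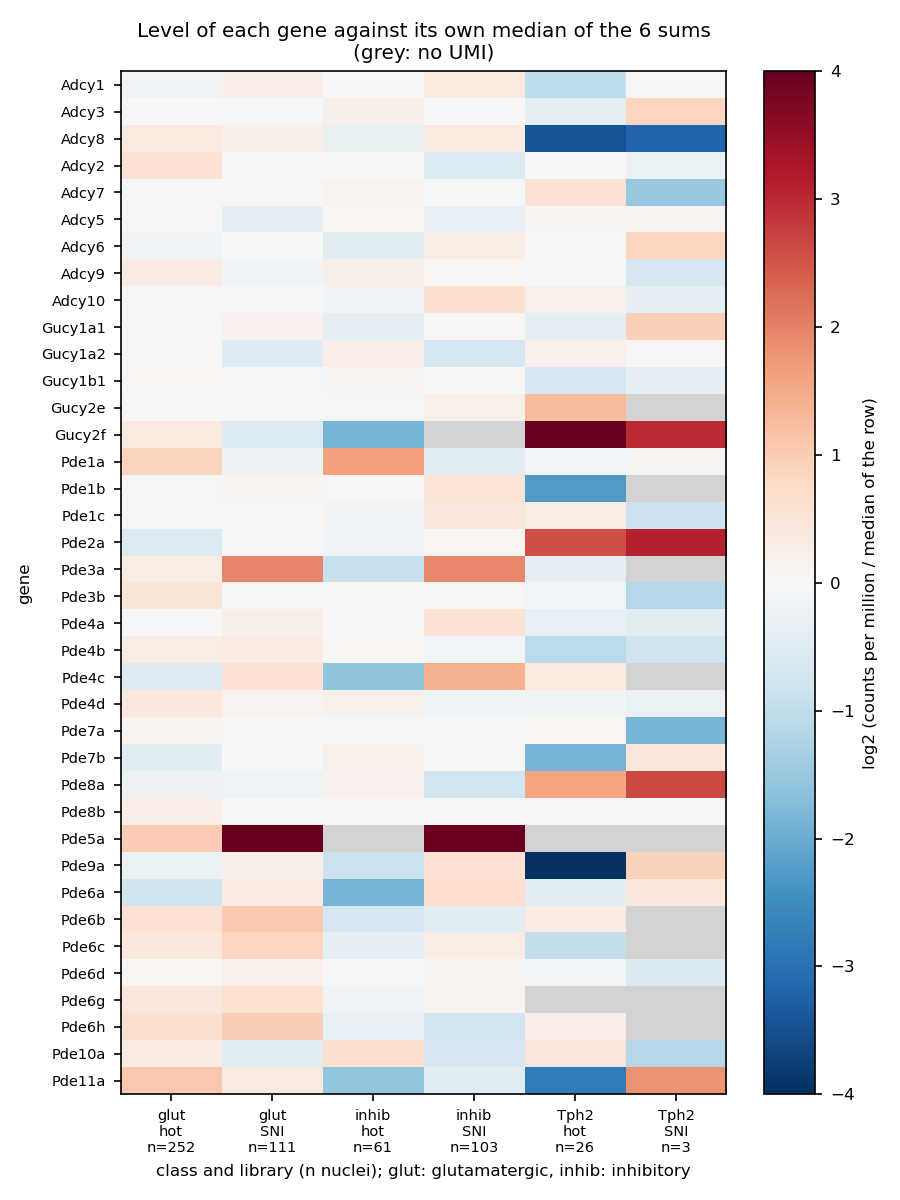
Level of each of the 38 members in each class and library against the member's own median over the 6 sums (colour, log2 scale, from −4 to 4; grey, no UMI; n, nuclei). Gucy2f, Pde2a and Pde8a are red and Adcy8 is blue in both Tph2 columns, and Pde5a is red in the SNI with brush glutamatergic and inhibitory columns.

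Among the phosphodiesterases, Pde2a stood at 16.6 CPM in glutamatergic, 22.0 in inhibitory and 144 in Tph2 nuclei of the hot water bath library. It stood at 22.9, 25.5 and 205 CPM in the SNI with brush library. The Tph2 class was the highest in both libraries, 8.71-fold over glutamatergic nuclei in the hot water bath library and 8.95-fold in the other. The log2 difference was 3.10 ± 0.32 (SE) against glutamatergic (edgeR adjusted p = 6.24e-20) and 2.85 ± 0.33 against inhibitory nuclei (adjusted p = 8.68e-16). A UMI was seen in 25 of 26 hot water bath Tph2 nuclei (96.2%), in 38.5% of glutamatergic and in 31.1% of inhibitory nuclei. Thinned to 9000 UMIs, these shares were 76.9%, 8.73% and 16.4%. The 3 SNI with brush Tph2 nuclei held 2, 15 and 14 UMIs of Pde2a. The gene lies on chromosome 7 at 101421691 to 101512827, plus strand, and overlaps the predicted gene Gm45837 and Mir139 on that strand. How reads in shared sequence were assigned is not known from the labels.

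Pde2a and Adcy8 were set side by side within single nuclei because of their opposite calls, so these counts describe those calls nucleus by nucleus and add no test. In the hot water bath library, 24 of 26 Tph2 nuclei had more Pde2a than Adcy8 UMIs, 2 had equal numbers and 0 had the reverse. The same was true of 6 of 252 glutamatergic and 10 of 61 inhibitory nuclei, while 221 and 39 had more Adcy8. Among SNI with brush nuclei, 3 of 3 Tph2, 5 of 111 glutamatergic and 7 of 103 inhibitory nuclei had more Pde2a. Both Pde2a and Gucy2f were seen in 18 of the 26 hot water bath Tph2 nuclei and in 10 of the 252 glutamatergic nuclei. Given how many Tph2 nuclei held each gene, 18 is the lowest overlap possible. It therefore says nothing about whether these genes occur together.

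**Figure D2:**
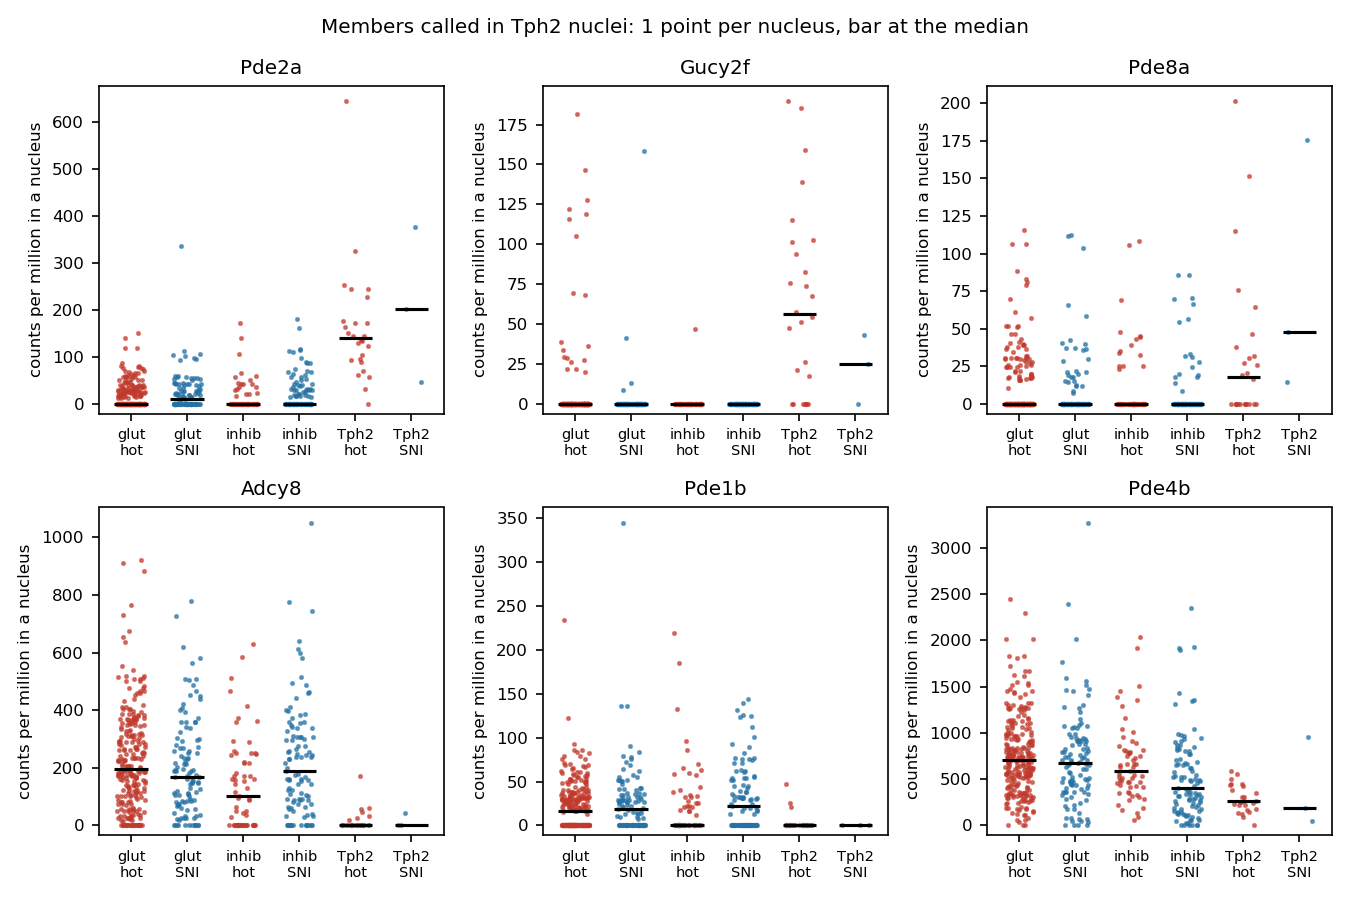
CPM of the 6 members called in Tph2 nuclei, 1 point per nucleus, by class and library (hot, hot water bath; SNI, SNI with brush), with a black bar at the median. Nearly all hot water bath Tph2 nuclei lie above 0 for Pde2a (25 of 26), whereas their median for Adcy8 is 0.

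Pde8a stood at 8.87 CPM in glutamatergic, 11.9 in inhibitory and 31.0 in Tph2 nuclei of the hot water bath library. It stood at 9.09, 6.23 and 66.1 CPM in the SNI with brush library. It was higher in the Tph2 class, by 2.18 ± 0.48 (log2, SE) against glutamatergic (edgeR adjusted p = 1.87e-04) and 2.19 ± 0.51 against inhibitory nuclei (adjusted p = 7.43e-04). The SNI with brush Tph2 value comes from 10 UMIs, 7 of them in 1 nucleus, and without that library the hot water bath difference from inhibitory nuclei was 1.37. The call was lost after thinning in both comparisons, and against inhibitory nuclei also with DESeq2 and with no library term. The liver-gene nuclei of the SNI with brush library held 182 CPM of Pde8a. In the 3 SNI with brush Tph2 nuclei 4 of 6 liver markers, Apoa1, Apob, Cps1 and Serpina1a, were at 0. Their liver list summed to 39.7 CPM, against 11.9 CPM in the hot water bath Tph2 nuclei, where Alb, Apob, Cps1 and Serpina1a were at 0.

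Pde1b stood at 21.5 CPM in glutamatergic, 22.5 in inhibitory and 4.56 in Tph2 nuclei of the hot water bath library. In the SNI with brush library it stood at 23.9 and 32.0 CPM in glutamatergic and inhibitory nuclei, with 0 UMIs in the 3 Tph2 nuclei, which allows up to 19.8 CPM. It was lower in the Tph2 class by edgeR's test against glutamatergic (log2 −2.47 ± 0.70, adjusted p = 9.76e-03) and inhibitory nuclei (−2.56 ± 0.69, adjusted p = 7.01e-03). Both calls were lost with DESeq2, with no library term, with nuclei over 0.5% mitochondrial UMIs left out and after thinning. The related Pde1a stood at 113 CPM in hot water bath Tph2 nuclei and at 132 CPM in SNI with brush Tph2 nuclei, where all 20 UMIs came from 1 nucleus. Pde1c stood at 114 and 52.9 CPM. Neither passed the test.

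Pde4b stood at 775 CPM in glutamatergic, 666 in inhibitory and 303 in Tph2 nuclei of the hot water bath library, and at 787, 585 and 364 CPM in the other. It was lower in Tph2 than in glutamatergic nuclei (log2 −1.29 ± 0.36, edgeR adjusted p = 7.67e-03). Against inhibitory nuclei the difference was −0.93 (adjusted p = 0.0959). Of 55 UMIs in the SNI with brush Tph2 nuclei, 40 came from 1 nucleus. The call was also lost with DESeq2, with no library term, without nuclei over 0.5% mitochondrial UMIs and after thinning. Pde4d, of the same cAMP-specific family, stood at 2332, 1993 and 1550 CPM in the hot water bath classes and at 1906, 1520 and 1442 CPM in the SNI with brush classes, and did not pass the test.

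**Figure D3:**
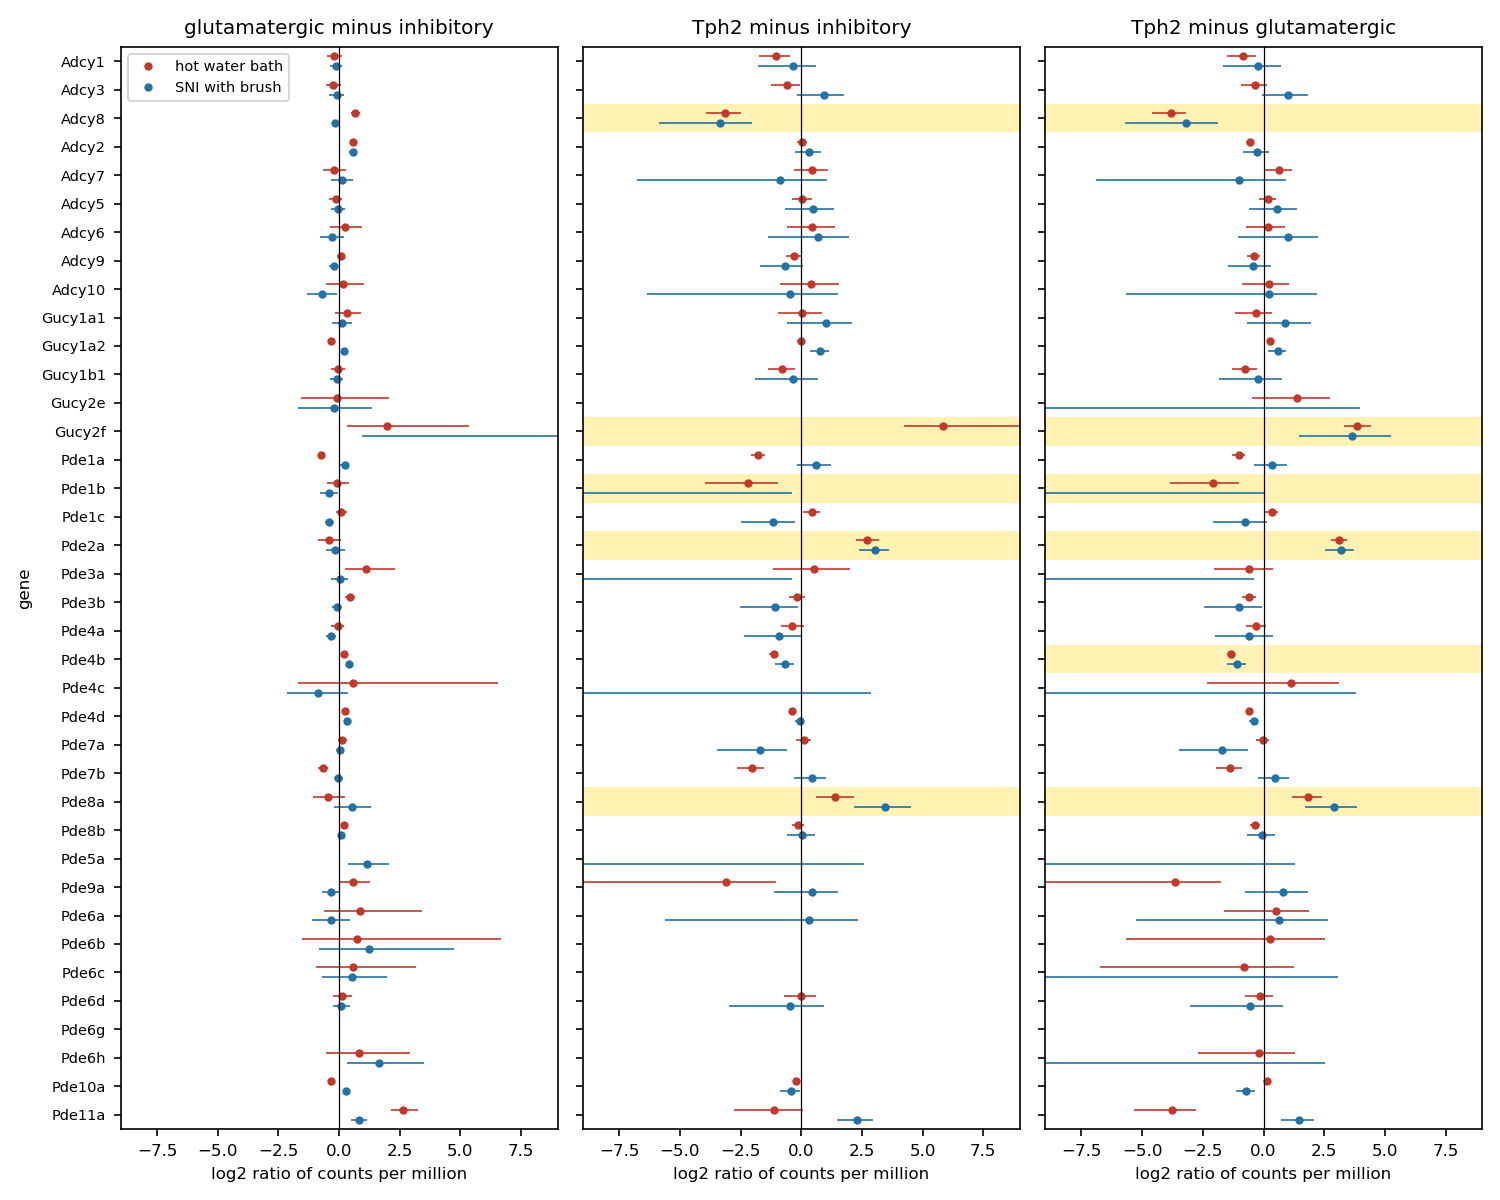
Log2 ratio of CPM between a pair of classes for each member, in the hot water bath (red) and SNI with brush (blue) library, with exact 95% counting intervals clipped at −9 and 9. Members with fewer than 10 UMIs in a library's pair are not drawn, a line with no point has 0 UMIs on one side, and yellow bands mark members called by edgeR: 0 in the left, 5 in the middle and 6 in the right panel.

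Between glutamatergic and inhibitory nuclei no member passed the test (0 of 38, edgeR), where 0.473% of 17973 genes were called, 0.284% higher and 0.189% lower. At an unadjusted p below 0.05, edgeR gave 6 members (Adcy2, Gucy2f, Pde11a, Pde4b, Pde5a and Pde6h), where it gave 9.28% of all genes. DESeq2 called 1, Pde11a, where it called 82 of 17973 genes, and gave 3 at an unadjusted p below 0.05, where it gave 2.18% of all genes. Pde11a, which hydrolyses both nucleotides, stood at 81.3 CPM in glutamatergic and 12.8 in inhibitory nuclei of the hot water bath library, and at 48.8 and 27.6 CPM in the SNI with brush library. The glutamatergic class was higher in both libraries, 6.33-fold and 1.77-fold (log2 1.64 ± 0.34, edgeR adjusted p = 0.121). Within glutamatergic nuclei of the hot water bath library it was seen in 51.6%, and a single nucleus reached 949 CPM. Adcy2, stimulated by G protein beta-gamma subunits, stood at 365 and 242 CPM in glutamatergic and inhibitory nuclei of the hot water bath library and at 247 and 167 CPM in the other, a near equal ratio (log2 0.63 ± 0.13, edgeR adjusted p = 0.121). Gucy2f was at least 2-fold higher in glutamatergic nuclei in both libraries with intervals off 1, a pattern that 1.1% of all genes had in either direction, 0.573% as higher and 0.523% as lower. That ratio rests on 45 against 2 and 12 against 0 UMIs (edgeR adjusted p = 0.296).

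The order of the members' levels depended on the length used, and whether reads in introns were counted is not stated. Per kb of exon, Pde4d was the highest member in both libraries, at 187 and 138 CPM per kb. Pde10a stood at 83.1 and 43.2, Adcy2 at 81.7 and 48.4, Pde4b at 69.7 and 64.2 and Gucy1a2 at 62.4 and 38.6 CPM per kb of exon. Per kb of gene body, Pde10a led the hot water bath library at 2.31 CPM per kb, with Pde4d at 1.5, and Pde4a led the SNI with brush library at 1.67. Among cyclases Adcy2 was the highest per kb of exon in both libraries, and Gucy1b1 the highest per kb of gene body, at 1.27 and 1.17. Pde10a, which hydrolyses both nucleotides, was seen in 100% of nuclei of all 3 classes in the hot water bath library.

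The retinal phosphodiesterases were at or near the limit of detection. Pde6a, Pde6b and Pde6c, catalytic subunits of rods and cones, summed to 6.31 CPM in glutamatergic and 3.21 in inhibitory nuclei of the hot water bath library and to 10.98 and 10.57 CPM in the other. The inhibitory subunits Pde6g and Pde6h were at most 0.757 and 4.54 CPM, while Pde6d, a carrier of prenylated proteins, ranged from 19.8 to 33.5 CPM. Pde4c was at most 3.80 CPM in the 3 classes. The remaining members were spread with no call between classes: Pde3b from 46.3 to 144 CPM, Pde4a from 46.3 to 93.8, Pde7a from 33.1 to 128, Pde7b from 30.1 to 146 and Pde8b from 181 to 230 CPM. The lowest values of Pde3b, Pde4a and Pde7a came from 7, 7 and 5 UMIs in the SNI with brush Tph2 nuclei. Pde9a, specific for cGMP, stood at 17.3 CPM in glutamatergic, 11.5 in inhibitory and 0.913 in Tph2 nuclei of the hot water bath library, the last from 1 UMI. In the SNI with brush Tph2 nuclei it stood at 39.7 CPM, from 6 UMIs.

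Of 56 other genes of these pathways, 50 had at least 20 UMIs. No gene passed between glutamatergic and inhibitory nuclei by edgeR (0 called, 5 of 50 at an unadjusted p below 0.05, where 9.28% of all genes were). DESeq2 called 1, Prkg1, where it called 82 of 17973 genes. By edgeR, 1 was higher and 3 lower in Tph2 than in glutamatergic nuclei (8% of the list, 6.07% of all genes), and 1 was higher and 2 lower than in inhibitory nuclei (6% of the list, 4.71% of all genes). Both shares lie near those of all genes. DESeq2 called 2 of these against glutamatergic nuclei, Prkg1 and Prkg2, where it called 357 of 17905 genes. Against inhibitory nuclei it called 0 of the list, where it called 241 of 17928 genes. There it gave 4 of the list at an unadjusted p below 0.05, where it gave 4.18% of all genes. The lower genes included both protein kinase G genes. Prkg1 stood at 934 CPM in glutamatergic, 274 in inhibitory and 182 in Tph2 nuclei of the hot water bath library and at 599, 454 and 146 CPM in the other (log2 −2.26 ± 0.37 against glutamatergic, edgeR adjusted p = 9.4e-08). Prkg1 in the SNI with brush Tph2 nuclei rests on 22 UMIs in 1 of 3 nuclei. Against inhibitory nuclei the Prkg1 difference was −1.04 (edgeR adjusted p = 0.0384). Prkg2 stood at 34.2, 11.01 and 1.82 CPM in the hot water bath library and at 28.2, 14.9 and 0 in the other, where 0 UMIs in 3 nuclei allow up to 19.8 CPM, above the inhibitory level (edgeR adjusted p = 2.16e-06 against glutamatergic). Rapgef4, the Epac2 exchange factor, stood at 317, 324 and 123 CPM and at 346, 315 and 112 CPM (log2 −1.51 ± 0.34 against glutamatergic, edgeR adjusted p = 2.72e-04, and −1.42 against inhibitory, adjusted p = 8.43e-04). Abcc4, a transporter that exports cyclic nucleotides, was the gene that was higher, at 51.1 CPM in Tph2 nuclei against 27.8 in glutamatergic nuclei of the hot water bath library and 126 against 26.3 CPM in the other (log2 1.42 ± 0.34, edgeR adjusted p = 1.16e-03). Gnao1 was higher in Tph2 than in glutamatergic nuclei. Against inhibitory nuclei, Akap6 was higher and Pkia lower in Tph2 nuclei. Prkar1a was lower in glutamatergic than in inhibitory nuclei. Each of these 4 genes differed in one direction in both libraries with both counting intervals off 1, and did not pass the test. Gnao1, a Go alpha subunit, stood at 400 and 377 CPM in Tph2 nuclei and at 242 and 183 CPM in glutamatergic nuclei.

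Within a class, the 2 libraries were compared by the ratio of their sums, with no test, since each treatment is 1 library. A gene was counted where it differed by at least 1.5-fold with the counting interval off 1 and had at least 20 UMIs in the class. In glutamatergic nuclei, 7 of 36 members were counted, 3 higher and 4 lower in the SNI with brush library, where 28.6% of 15649 genes were counted, 22.4% higher and 6.17% lower. Scaled by median-of-ratios size factors, which moved every log2 ratio by −0.17, 3 members were higher and 8 lower (Adcy2, Adcy9, Gucy1a2 and Pde3b added), and of all genes 16.4% were higher and 10.2% lower. In inhibitory nuclei, 10 of 30 members were counted, 6 higher and 4 lower, where 31.1% of 13532 genes were counted, 24.9% higher and 6.22% lower. With size factors, which moved every log2 ratio by −0.25, 4 members were higher and 7 lower: Adcy6 and Adcy8 were no longer counted and Adcy2, Adcy5 and Pde4d were counted as lower. Of all genes 15.7% were then higher and 12.2% lower. The members' median log2 ratio was 0.04 in glutamatergic and −0.00465 in inhibitory nuclei, against 0.17 and 0.25 for all genes. In the 3 against 26 Tph2 nuclei, 6 of 26 members were counted, where 20.5% of 7434 genes were, 14.8% higher and 5.68% lower. With size factors 2 members were higher and 5 lower, and of all genes 10.9% were higher and 9.03% lower. By total UMIs, Adcy3, Pde7b and Pde11a were higher and Pde1c, Pde7a and Pde10a lower, and 15 of the 20 Pde11a UMIs lay in 1 nucleus. Mitochondrial UMIs made up 0.0751% in the hot water bath and 0.927% in the SNI with brush Tph2 nuclei (1.79% in 1 of the 3), and the oligodendrocyte list summed to 76.7 and 225 CPM. The part of these in the Tph2 library differences was not tested.

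Pde10a was lower in the SNI with brush library in all 3 classes, at 600 against 990 CPM in glutamatergic, 495 against 1252 in inhibitory and 364 against 1081 in Tph2 nuclei. Pde1a was lower in glutamatergic (105 against 229 CPM) and inhibitory nuclei (89.99 against 386 CPM), the latter a log2 ratio of −2.10 (−2.29 to −1.92). A single nucleus held 15.2% of the hot water bath inhibitory Pde1a UMIs, and with inhibitory nuclei limited to those with 100% of transmitter UMIs of one kind the log2 ratio was −1.34. Gucy1a2 was lower in inhibitory nuclei, at 246 against 475 CPM, and so were Gucy2f in glutamatergic (12 against 45 UMIs) and Pde8a in inhibitory nuclei (23 against 26 UMIs, from a larger sum).

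Pde3a, which hydrolyses cAMP and is held back by cGMP, was higher in the SNI with brush library, at 32.6 against 10.5 CPM in glutamatergic and 32.0 against 4.59 CPM in inhibitory nuclei. It was seen in 32.4% against 14.7% of glutamatergic and 28.2% against 9.84% of inhibitory nuclei, and in 14.4% against 5.95% and 15.5% against 4.92% after thinning. With glutamatergic nuclei limited to those with 100% of transmitter UMIs of one kind, the log2 ratio of Pde3a was 0.62 in place of 1.64. In inhibitory nuclei it was 2.74, and 1.57 after thinning and 3.63 at 100%. Pde5a, specific for cGMP, had 55 against 6 UMIs in glutamatergic nuclei (log2 ratio 4.04, 2.92 to 5.65), seen in 15 of 111 against 5 of 252 nuclei, with 14 of the 55 UMIs in 1 nucleus. In inhibitory nuclei it had 17 against 0 UMIs, below the 20 required. Pde6a was higher in both classes, at 6.25 against 2.86 and 7.86 against 1.38 CPM. Pde9a was higher in inhibitory nuclei, at 31.2 against 11.5 CPM, and so was Adcy6, at 18.2 against 11.01 CPM.

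Pde11a and Adcy8 went opposite ways in the 2 classes. Pde11a was lower in glutamatergic nuclei of the SNI with brush library, with a log2 ratio of −0.73, and higher in inhibitory nuclei, with 1.09. Adcy8 had log2 ratios of −0.15 and 0.68, the latter 0.43 with size factors. Whether the classes differ was not tested.

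**Figure D4:**
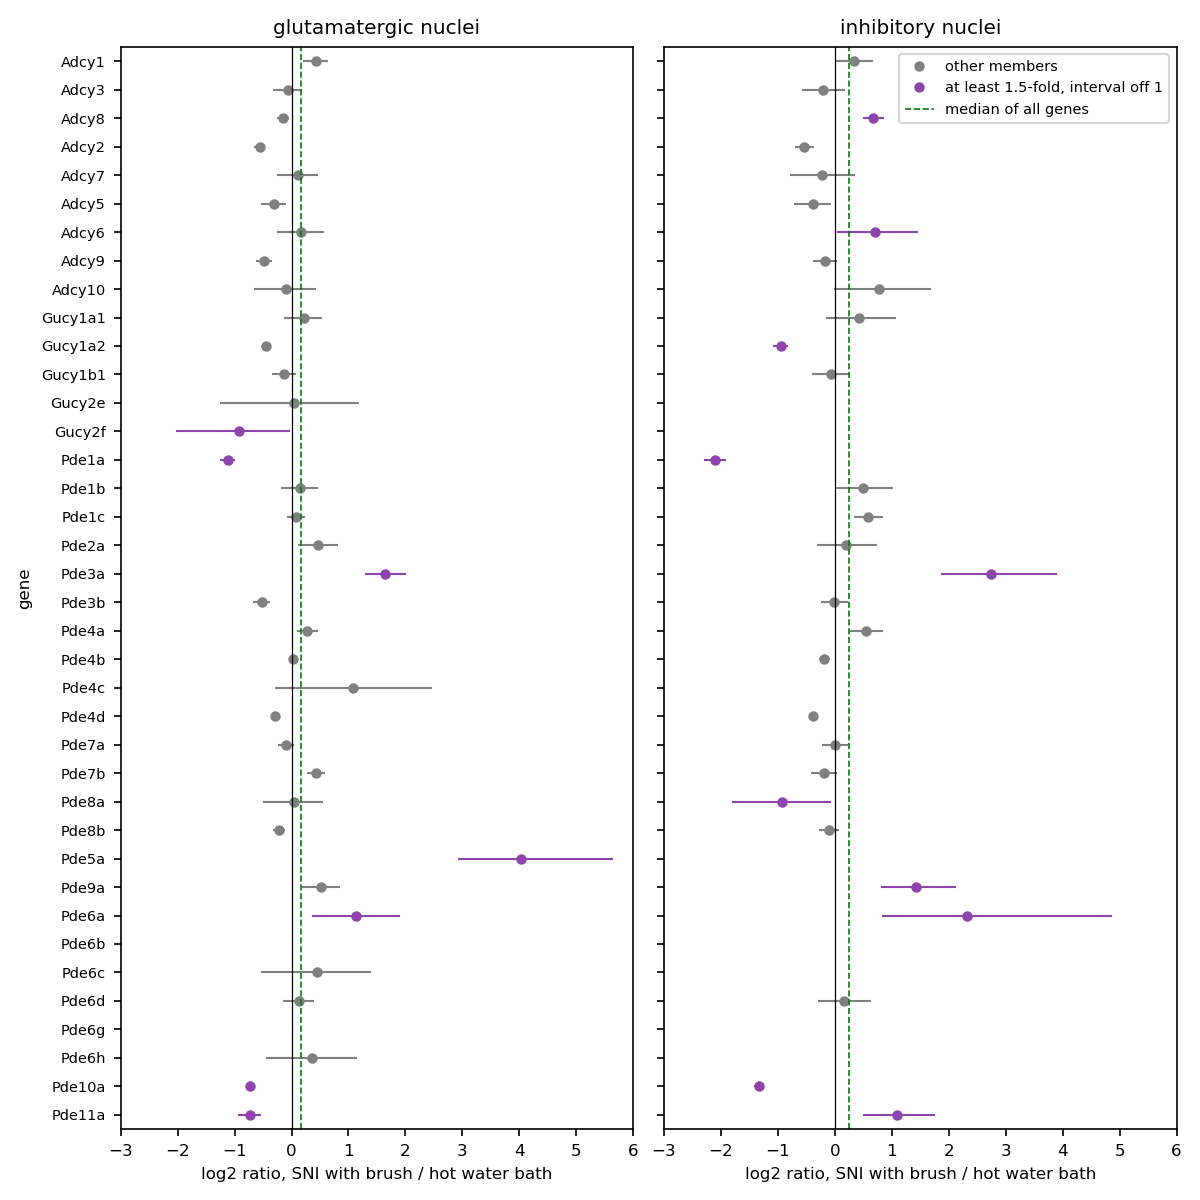
Log2 ratio of CPM, SNI with brush over hot water bath, for members with at least 20 UMIs in the class, with exact 95% counting intervals. Purple marks the 7 glutamatergic and 10 inhibitory members counted as different, and the green dashed line is the median of all genes.

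Other features moved with the library. The make-up of the inhibitory class differed: Slc6a5 stood at 71.5 CPM in the hot water bath and 226 in the SNI with brush library, Gad2 at 328 and 206, Lmx1b at 45.0 and 2.44 and Slc18a2 at 58.7 and 16.3 CPM. Mitochondrial UMIs made up 0.103% in glutamatergic and 0.345% in inhibitory nuclei of the hot water bath library and 0.381% and 0.673% in the other. The oligodendrocyte list of 5 genes summed to 70.2 and 87.1 CPM against 151 and 163 CPM, the astrocyte list of 4 to 2.76 and 12.8 against 14.4 and 16.0, and the liver list of 6 to 8.08 and 11.9 against 40.7 and 83.2 CPM. The microglia list of 4 summed to 73.3 and 83.9 against 69.7 and 78.6 CPM. None of these markers was at 0 in the SNI with brush glutamatergic and inhibitory sums. In both hot water bath sums Alb, Apob and Serpina1a were at 0, and in the inhibitory one also Gja1 and Inpp5d. The liver-gene nuclei left out held 382 CPM of Pde3b, 331 of Pde7b, 272 of Adcy9, 105 of Pde4c and 96.5 of Pde6c. The part of these features in the differences between libraries was not tested.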

How the data were processed

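Each library has a table of counts of UMIs per gene and nucleus as deposited by the authors. They are whole numbers and entered the tests unchanged. The mm10 build, Cell Ranger 5.0 and Seurat (no version named) are listed per the submitters' processing notes. The filter that left 425 of 723 and 288 of 850 listed barcodes, and whether reads in introns were counted, remain unstated in those sources. The members and gene lists were chosen with earlier results of these data known.

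Doublets called per library by Scrublet (scanpy 1.11.5), 3 and 2 nuclei, and nuclei with more liver than neuron marker UMIs were left out. Of nuclei near the limits of the class rule, 7 and 3 had 70% to 75% of transmitter UMIs of one kind, 10 and 9 had 75% to 80%, and 4 and 1 had 5 to 9 Tph2 UMIs. At 90% and 100% of one kind the glutamatergic class held 212 and 204 nuclei in the hot water bath library and 73 and 55 in the SNI with brush library. Unnamed nuclei had too few (58 and 30) or mixed transmitter UMIs (25 and 22). CPM are per 1000000 UMIs of the summed nuclei, with exact Poisson intervals, and shares have exact Clopper-Pearson intervals. Log2 ratios had 0.5 UMI added to both sums, with exact intervals given the summed count. All intervals, and the floor of 3 counts for a count of 0, cover counting error only. Thinning drew 9000 UMIs from each nucleus, and the shallowest held 9164. Class sums were tested with edgeR 4.0.16 (R 4.3.3, TMM, quasi-likelihood) on genes with at least 20 UMIs over both libraries, called at an adjusted p below 0.05, and with DESeq2 1.42.0 as an alternative. The fit was tested on simulated data, in which only genes with many UMIs were changed and the spread was that of the fit itself. Genes with fewer UMIs, such as Gucy2f, Pde8a, Pde1b and Pde2a in the Tph2 comparisons, are not covered by it. With 1 residual degree of freedom, edgeR draws on a spread shared over genes, and p-values refer to these 2 libraries only. In both comparisons of Tph2 nuclei the weight of that shared spread (prior degrees of freedom) was infinite. A gene's own spread between the libraries then had no weight in its p-value. That weight was 6.57 between glutamatergic and inhibitory nuclei, so numbers of calls are not on an equal footing across comparisons. Nuclei were not treated as replicates. Values are printed for members called between classes, or at least 2-fold different in both libraries with intervals off 1, and between libraries for those past 1.5-fold; of the pathway list the 8 genes are named with the largest difference (the smaller of both libraries) of one direction with both counting intervals off 1; that limit on intervals was added to the written rule, and without it genes such as Gnai2, Gnaz and Akap13 would rank above Akap6, Prkar1a and Pkia. Other members named were chosen to cover each group, after their values were seen. Positions of genes were read from GENCODE vM21 (mm10). Other scalings, filters, class rules and nucleus filters were tried.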

Additional observations from a re-analysis of the deposited data

Results flagged for a closer look

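Adcy8 and Pde11a are singled out because their ratios of the SNI with brush to the hot water bath library had opposite signs in 2 classes with counting intervals off 1. For Adcy8 the log2 ratio was −0.15 in glutamatergic nuclei and 0.68 in inhibitory nuclei. For Pde11a it was −0.73 in glutamatergic nuclei and 1.09 in inhibitory nuclei. The difference between the classes was not tested, since each treatment is 1 library.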

How the results depend on the processing

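Direction was checked for members called or at least 2-fold different between classes, for Adcy2 and Pde11a, and for members counted between libraries in glutamatergic and inhibitory nuclei. None of these changed direction under the alternatives run. Pathway genes and the library ratios of single members in Tph2 nuclei were not checked in this way. Adcy8, Gucy2f and Pde2a passed the test in 14 of 14 alternatives in both comparisons of Tph2 nuclei. Pde1b passed in 10 of 14 in both, Pde4b in 10 of 14 against glutamatergic nuclei, and Pde8a in 13 of 14 against glutamatergic and 11 of 14 against inhibitory nuclei. For the calls lost, the cause was not tested. Against inhibitory nuclei, 5 members became 3 with DESeq2, 3 with no replicate block (no library term) and 3 after thinning, and against glutamatergic nuclei 6 became 3 after thinning. Between glutamatergic and inhibitory nuclei, 0 became 1 with DESeq2, 2 with genes from 1 UMI, 2 with 90% and 1 with 100% of transmitter UMIs of one kind, 1 without nuclei over 0.5% mitochondrial UMIs and 2 after thinning, in each case Adcy2, Pde11a or both. The adjusted p of Pde11a ranged from 1.14e-06 to 1 over these alternatives and that of Adcy2 from 0.00376 to 1. Over all genes, calls between glutamatergic and inhibitory nuclei went from 85 to between 1 (no library term) and 338 (genes from 1 UMI). In Tph2 against inhibitory nuclei 845 became 241 with DESeq2, 131 with no library term, 469 without nuclei over 0.5% mitochondrial UMIs and 241 after thinning. In Tph2 against glutamatergic nuclei 1087 became 357, 555, 745 and 351 in the same order. With 1 library alone there is no test: the Pde11a difference was 2.64 in the hot water bath and 0.82 in the SNI with brush library, and that of Pde8a from inhibitory nuclei 1.37 and 3.45. Between libraries, size factors moved all log2 ratios by −0.17 in glutamatergic, −0.25 in inhibitory and −0.21 in Tph2 nuclei. The 7 members counted in glutamatergic nuclei became 11 with size factors, each added one lower, and 4 at 2-fold, the 10 in inhibitory nuclei 6 at 2-fold, and the 6 in Tph2 nuclei 1 (Pde10a) after thinning. The alternatives for the library comparison of Tph2 nuclei were chosen after seeing the data. Depth limits the Tph2 class of the SNI with brush library, where 1 UMI is 6.61 CPM (the level of Adcy7 and Adcy10). Classes were compared within library, so the library term is the block, and the labels give no further replicate numbers.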
